A study of Mus musculus with 6 samples.

Results

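Mammalian cells cannot break down the sterol ring, so a macrophage that has taken up lipoprotein must either store its cholesterol or export it. The report covers 10 genes of that route, chosen by name: the sterol sensors Nr1h2 and Nr1h3, the exporters Abca1 and Abcg1, the ubiquitin ligase Mylip, the ester hydrolases Lipa and Nceh1, the esterifying enzyme Soat1, and the late endosomal sterol carriers Npc1 and Npc2. Every probe set carrying one of these symbols in the platform annotation was taken, which gave 18 of the 45101 probe sets of the array, for 8 of the 10 genes. The annotation table used here named no probe set for Nr1h2 or Soat1, and both genes were therefore not analysed here. Above a filter that left out the dimmest 40% of probe sets, 16 of the 18 remained, and each of the 8 genes had at least 1.

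Total RNA from whole aorta was compared between apoE-/- mice of the C57BL/6J background (3 arrays) and C57BL/6J wild-type mice (3 arrays), all of them 32 weeks old. The apoE-/- mouse lacks apolipoprotein E, the ligand by which remnant lipoproteins are cleared, and is widely used as a model of raised plasma cholesterol and arterial plaque. The labels give neither diet nor sex, and do not say whether one array held one animal or a pool. Replicates are therefore separate samples by label only, and the p-values measure a spread that may be technical.

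In a loaded macrophage, lysosomal acid lipase (Lipa) hydrolyses the cholesteryl esters of lipoprotein, and the Niemann-Pick proteins Npc2 and Npc1 hand the freed cholesterol out of the late endosome. Soat1 re-esterifies it for droplets, Nceh1 is a hydrolase of esters outside the lysosome, and Abca1 and Abcg1 pass cholesterol to apolipoprotein A-I and to HDL. The liver X receptors (LXRs) Nr1h3 and Nr1h2 sense oxysterols and switch on Abca1, Abcg1 and Mylip, the last of which marks lipoprotein receptors for degradation.

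Intensities are on the linear scale of the deposited table, in arbitrary units. Array medians lay between 178 and 195.5 units, and Apoe, read as a check of the labels, gave 239.5, 56.3 and 462.1 units in apoE-/- aorta, against 5685.6, 5625.2 and 4309.1 units in wild-type aorta. Its log2 change was -4.65 ± 0.56 (SE, limma adjusted p = 0.00368). Smooth muscle transcripts were present on every array, with the 10 listed markers summing to between 65868 and 79312 units in apoE-/- and between 75036 and 85630 units in wild-type aorta. None of the 10 passed the limma test. At an unadjusted p under 0.05, which 8.81% of all genes met with a lower level in apoE-/-, 4 were lower and 0 higher. The median of their log2 changes was -0.15, where that of all 13031 genes was -0.05. Of the apoE-/- arrays, replicate 2 had the smallest summed macrophage marker level (46483 units).

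The exporters, both hydrolases and Mylip were higher in apoE-/- aorta, whereas the sensor and the late endosomal carriers did not pass the test. In the limma fit over 13031 genes, each represented by its brightest probe set, 5 of the 8 measured genes rose at an adjusted p under 0.05 and 0 fell. Over all genes tested, 3.15% rose and 0.483% fell. The genes were chosen with earlier results of these data known, so the comparison with all genes only describes them. At an unadjusted p under 0.05, 7 of the 8 were higher and 0 were lower, where 9.56% of all genes were higher and 8.81% were lower. In the same 5 genes all 3 apoE-/- arrays lay above all 3 wild-type arrays, a separation that 10.9% of all genes tested showed. The median log2 change of the 8 genes was 0.98. In whole tissue, more cells that make a transcript and more transcript per cell cannot be told apart.

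**Figure D1:**
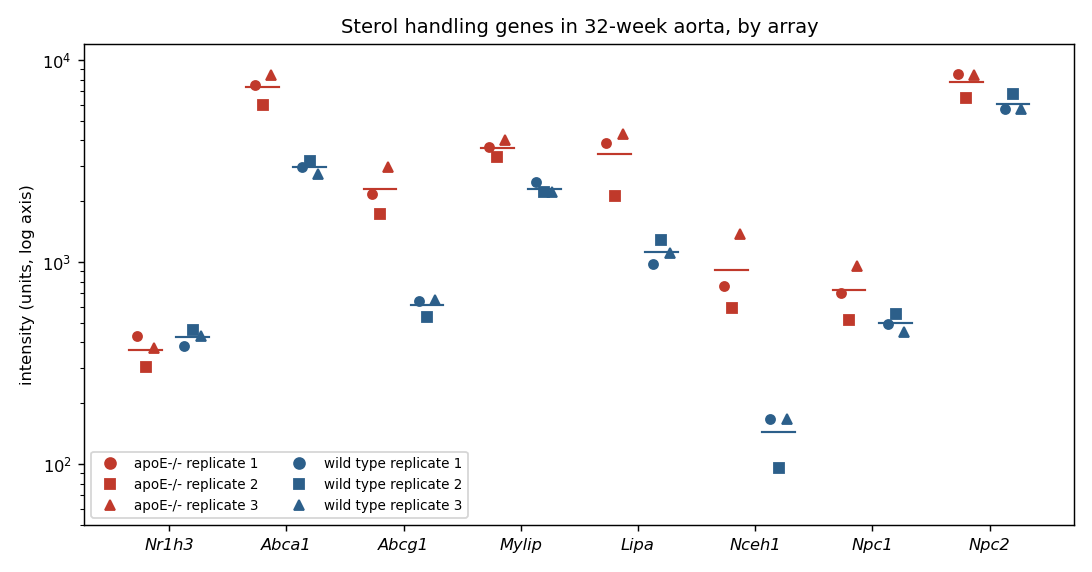
Intensity of the brightest probe set of each gene on every array, on a log axis in arbitrary units, with apoE-/- arrays in red, wild-type arrays in blue, one symbol per replicate number and horizontal bars at the group means. The groups are separate for Abca1, Abcg1, Mylip, Lipa and Nceh1 and overlap for Nr1h3, Npc1 and Npc2, and levels of different genes cannot be compared with each other.

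Of the sensors, Nr1h3 (LXR alpha, probe set 1450444_a_at) was measured. It read 428.1, 301.8 and 376.2 units on the apoE-/- arrays, against 385.4, 462.6 and 428.1 units on the wild-type arrays. The groups overlapped, and apoE-/- replicate 1 read the same as wild-type replicate 3. Its log2 change came to -0.21 ± 0.16 (SE, limma adjusted p = 0.536), with a 95% interval from -0.57 to 0.16. That interval excludes a rise of the size seen for any of the 5 genes that rose.

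Abca1, the transporter that loads cholesterol and phospholipid onto lipid-poor apolipoprotein A-I, rose on all 3 of its probe sets. The brightest, 1421840_at, gave 7536.5, 6001.0 and 8468.9 units in apoE-/- aorta, against 2947.6, 3165.0 and 2740.1 units in wild-type aorta. The lowest apoE-/- array, replicate 2, was still well above the highest wild-type array, also replicate 2. The log2 change was 1.30 ± 0.13 (SE, limma adjusted p = 0.00167), a 2.46-fold difference with a 95% interval from 2.001 to 3.018.

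The dimmer Abca1 probe sets gave larger changes. Probe set 1421839_at read 1696.3, 1222.5 and 2110.4 units in apoE-/- aorta, against 376.3, 468.7 and 437.6 units in wild-type aorta. Probe set 1450392_at read 600.4, 524.6 and 710.0 units in apoE-/- aorta, against 137.2, 195.3 and 142.6 units in wild-type aorta. In a limma fit over all 27022 probe sets above the filter, their log2 changes were 1.90 ± 0.19 and 1.85 ± 0.18 (SE), with adjusted p = 0.00140 and adjusted p = 0.00133. The size of the Abca1 rise thus depended on the probe set, and its direction did not.

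The promoter of Abca1 is shown because LXRs are known to act through it on a direct repeat of half-sites. The sequence is that of RefSeq on GRCm38.p6, chr4:53159846-53160145, minus strand, from 250 bases before to 50 bases after the annotated start. The capitals mark a CACGTG (an E-box), a match to the repeat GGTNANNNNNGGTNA on the opposite strand, and a TATAAA, in that order from the 5′ end.

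Abca1 promoter: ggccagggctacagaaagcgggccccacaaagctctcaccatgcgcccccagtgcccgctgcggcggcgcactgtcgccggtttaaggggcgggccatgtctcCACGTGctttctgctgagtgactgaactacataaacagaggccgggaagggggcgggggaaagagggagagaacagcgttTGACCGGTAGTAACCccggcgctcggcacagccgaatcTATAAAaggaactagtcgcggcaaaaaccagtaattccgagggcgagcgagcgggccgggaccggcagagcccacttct

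The repeat match began at position -67 from the start and did not overlap the other motifs, of which the E-box began at -147 and the TATAAA at -29. Both strands of 32851 promoters of the same length were searched. The repeat was found in 0.718% of them, CACGTG in 7.15% and TATAAA in 13.6%. Promoters were taken for 8 of the 10 genes, 9 in all because Nr1h3 has a pair of starts. Abcg1 and Npc1 are not among the 8, so whether their promoters hold the repeat is not given here. Abca1 was the only one of the 8 with the repeat. No match to the sterol regulatory element TCACNCCAC, present in 1.24% of all promoters, was found in these 9. A match describes letters in the window and was not tested as a binding site.

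Abcg1, which moves cholesterol to HDL particles, was higher on both of its probe sets. The brighter, 1423570_at, gave 2181.9, 1719.8 and 2967.6 units in apoE-/- aorta, against 643.8, 536.8 and 649.9 units in wild-type aorta. No array of one genotype came near the range of the other. Abcg1 thus rose by 1.85 ± 0.19 in log2 (SE, limma adjusted p = 0.00167), or 3.61-fold with a 95% interval from 2.69 to 4.83. The dimmer probe set, 1455221_at, read 424.8, 278.3 and 685.8 units in apoE-/- aorta, against 100.9, 58.2 and 98.5 units in wild-type aorta, a log2 change of 2.17 ± 0.32 (SE) in the probe set fit (adjusted p = 0.00820). Its wild-type mean was under the filter, so it entered the fit only through the apoE-/- arrays and adds no support to the rise. The apoE-/- arrays varied more from one another than the wild-type arrays did, with standard deviations of 631 and 63.6 units (n = 3 each) on the brighter probe set.

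Mylip, the ligase also called IDOL, had the smallest of the 5 rises. Its single probe set, 1424988_at, gave 3712.1, 3314.5 and 4003.3 units in apoE-/- aorta, against 2489.8, 2227.0 and 2212.2 units in wild-type aorta. The arrays of each genotype lay close together and the ranges were apart. Mylip rose by 0.66 ± 0.10 in log2 (SE, limma adjusted p = 0.00978), or 1.59-fold with a 95% interval from 1.35 to 1.86. Without apoE-/- replicate 1 the change was 0.66 with adjusted p = 0.0516, and the call was lost. The Mylip promoter (RefSeq, GRCm38.p6, chr13:45389492-45389791, plus strand) is shown beside that of Abca1 because LXRs are known to switch on both genes. Its only capitals are a TATAAA that begins at position -32, close to the place of the one in Abca1.

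Mylip promoter: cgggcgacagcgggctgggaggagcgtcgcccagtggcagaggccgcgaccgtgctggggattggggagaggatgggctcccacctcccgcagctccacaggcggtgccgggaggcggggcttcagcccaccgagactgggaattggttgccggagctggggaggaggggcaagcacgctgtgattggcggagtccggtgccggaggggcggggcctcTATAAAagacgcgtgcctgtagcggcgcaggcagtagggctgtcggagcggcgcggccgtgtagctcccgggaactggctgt

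Lipa, the acid lipase of the lysosome, was higher on all 3 of its probe sets and passed the test on 2. The brightest, 1450872_s_at, carries a suffix that by the array maker's convention marks probes shared by several transcripts, possibly of different genes. It gave 3895.1, 2116.3 and 4285.6 units in apoE-/- aorta, against 978.8, 1282.5 and 1108.5 units in wild-type aorta. The apoE-/- replicate 2 array lay, on a log scale, about as far below its partners as above the wild-type mean. The log2 change was 1.54 ± 0.24 (SE, limma adjusted p = 0.0120), or 2.91-fold with a 95% interval from 1.99 to 4.27. Without apoE-/- replicate 1 it was 1.42 with adjusted p = 0.0664, and the call was lost.

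The unshared Lipa probe sets differed from each other in size. Probe set 1423140_at read 2099.5, 996.0 and 2231.9 units in apoE-/- aorta, against 357.8, 443.6 and 407.6 units in wild-type aorta, a log2 change of 2.02 ± 0.27 (SE, probe set fit, adjusted p = 0.00542). Probe set 1423141_at read 696.2, 458.9 and 879.8 units in apoE-/- aorta, against 326.9, 334.0 and 368.7 units in wild-type aorta, a log2 change of 0.90 ± 0.21 (SE, adjusted p = 0.0668). The ranges were apart on both, but the second did not pass the test.

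Nceh1, the neutral cholesterol ester hydrolase, had the largest log2 change of the 8 genes. Its brightest probe set, 1455227_at, gave 758.6, 592.2 and 1375.6 units in apoE-/- aorta, against 166.9, 95.8 and 167.4 units in wild-type aorta. The apoE-/- replicate 3 array was far above its partners, and all 3 were above every wild-type array. Nceh1 rose by 2.48 ± 0.32 in log2 (SE, limma adjusted p = 0.00476), or 5.59-fold with a 95% interval from 3.40 to 9.19.

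A further Nceh1 probe set, 1435134_at, read 392.4, 344.4 and 524.9 units in apoE-/- aorta, against 94.7, 133.4 and 151.5 units in wild-type aorta, and its log2 change was 1.61 ± 0.22 (SE, probe set fit, adjusted p = 0.00553). The third, 1435135_at, fell under the filter and was not tested. It read 163.8, 43.4 and 400.0 units in apoE-/- aorta, against 16.2, 18.8 and 20.7 units in wild-type aorta, readings that are not shown to be above background. The wild-type levels of Nceh1 were low on all 3 probe sets, and its log2 change was 2.61 with a log offset of 1 and 2.17 with an offset of 64. Over the 16 alternatives tried it ran from 2.05 to 2.74 and was called in all of them.

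The promoters of the hydrolases are shown because both genes rose with the LXR targets. That of Nceh1 (RefSeq, GRCm38.p6, chr3:27182754-27183053, plus strand) has a CACGTG that begins at position -26, in capitals, and that of Lipa (chr19:34527425-34527724, minus strand) has a TATAAA on the opposite strand far upstream, at -239. Neither holds the repeat marked in Abca1, nor do those taken for Nr1h2, Nr1h3, Soat1, Npc2 and Mylip.

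Nceh1 promoter: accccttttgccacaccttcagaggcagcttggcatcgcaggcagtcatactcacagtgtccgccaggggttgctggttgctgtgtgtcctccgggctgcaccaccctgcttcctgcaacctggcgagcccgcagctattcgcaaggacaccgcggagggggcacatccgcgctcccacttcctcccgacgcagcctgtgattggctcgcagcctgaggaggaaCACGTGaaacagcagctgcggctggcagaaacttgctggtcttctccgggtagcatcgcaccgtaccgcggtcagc
Lipa promoter: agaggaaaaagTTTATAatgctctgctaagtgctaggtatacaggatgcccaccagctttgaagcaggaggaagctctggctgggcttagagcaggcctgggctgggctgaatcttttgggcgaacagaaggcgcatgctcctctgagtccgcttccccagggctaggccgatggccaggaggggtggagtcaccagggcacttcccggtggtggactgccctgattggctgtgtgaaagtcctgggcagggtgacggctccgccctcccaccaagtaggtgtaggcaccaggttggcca

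**Figure D2:**
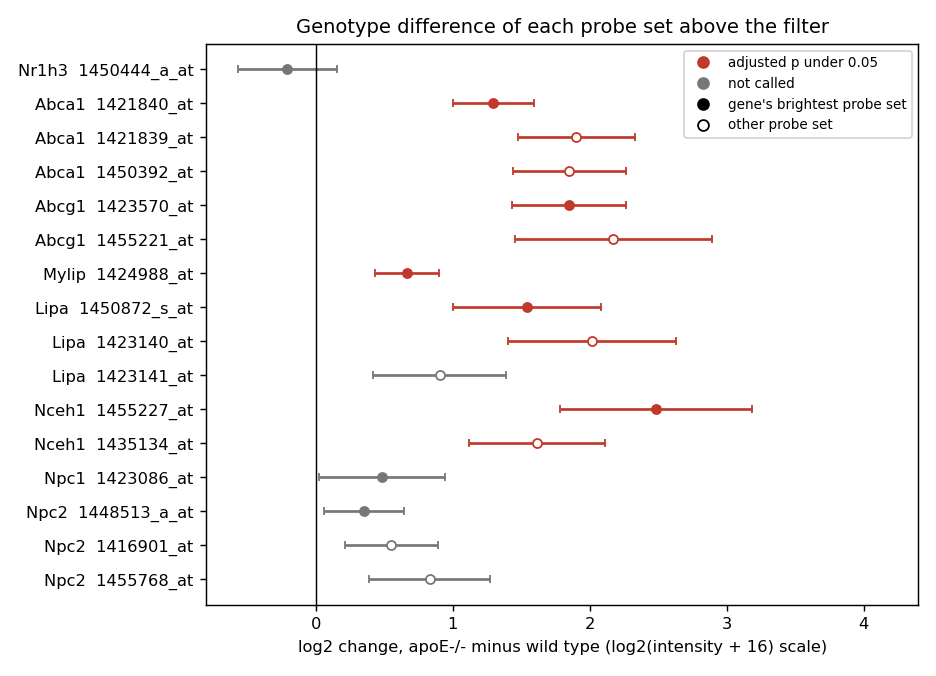
Log2 change, apoE-/- minus wild type on the log2(intensity + 16) scale, of the 16 probe sets above the filter, with 95% intervals from the fit over 27022 probe sets. Red points passed at an adjusted p under 0.05, grey points did not, and filled points mark the brightest probe set of a gene. All probe sets of Abca1 and Abcg1 are red, the Npc1 and Npc2 intervals lie above 0 without passing the adjusted test, and that of Nr1h3 spans 0.

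Npc1, the membrane protein of late endosomes that takes cholesterol from Npc2, was not called. Its single probe set, 1423086_at, read 706.6, 516.9 and 954.6 units in apoE-/- aorta, against 495.9, 554.2 and 451.6 units in wild-type aorta. The groups overlapped because apoE-/- replicate 2 lay inside the wild-type range, while its partners were above it. Its estimated log2 change was 0.48 ± 0.21 (SE, limma adjusted p = 0.260), with a 95% interval from 0.02 to 0.95.

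Npc2, the soluble sterol carrier of the lysosome, gave a like picture. Its brightest probe set, 1448513_a_at, read 8558.3, 6450.2 and 8398.6 units in apoE-/- aorta, against 5711.2, 6807.2 and 5706.2 units in wild-type aorta. Again apoE-/- replicate 2 lay inside the wild-type range. The log2 change was 0.35 ± 0.13 (SE, limma adjusted p = 0.198), with a 95% interval from 0.06 to 0.65.

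A pair of dimmer Npc2 probe sets separated the genotypes without passing the test. Probe set 1416901_at read 7732.9, 5726.4 and 7806.8 units in apoE-/- aorta, against 4547.5, 5669.0 and 4230.8 units in wild-type aorta (log2 change 0.55 ± 0.15, SE, probe set fit, adjusted p = 0.108). Probe set 1455768_at read 740.4, 527.7 and 935.7 units in apoE-/- aorta, against 369.5, 433.5 and 384.3 units in wild-type aorta (log2 change 0.83 ± 0.20, SE, adjusted p = 0.0659). The fourth, 1443266_at, was under the filter, at 10.8 to 22.1 units in apoE-/- and 19.2 to 61.4 units in wild-type aorta. Neither Npc gene was called under any of the 16 alternatives.

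By probe set, 10 of the 16 above the filter rose and 6 were not called, in a fit where 2.44% of 27022 probe sets rose. Ranges were apart, with apoE-/- higher, on 13 of the 16 and on 10.5% of all 27022. Of the 16, 15 had a mean above the filter in each genotype, and 9 of these 15 rose. Probe sets of a gene are not independent of one another, since they read the same transcripts.

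The genes also shared an order among the apoE-/- arrays. On all 16 probe sets above the filter apoE-/- replicate 2 was the lowest of the 3 apoE-/- arrays, and on 14 of them apoE-/- replicate 3 was the highest. Replicate 2 was the lowest apoE-/- array for 87.8% of all 410 genes that rose and for 32.5% of all 13031 genes tested. Replicate 3 was the highest for 74.4% of the genes that rose and for 29.7% of all genes, so both ranks were common among rising genes. Expressed as the deviation of log2(intensity + 16) from the wild-type mean, Nceh1 stood at 2.32, 1.97 and 3.16 on apoE-/- replicates 1, 2 and 3, Lipa at 1.79, 0.91 and 1.93, and Nr1h3 at 0.01, -0.47 and -0.17. Leaving out apoE-/- replicate 2 kept the count of called genes at 5 of 8, and leaving out apoE-/- replicate 1 lowered it to 3.

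Macrophage transcripts moved the same way. Of 18 listed macrophage markers 15 rose and 0 fell in the limma fit (16 higher and 0 lower at an unadjusted p under 0.05, against 9.56% higher and 8.81% lower of all genes), with a median log2 change of 1.58. Their summed intensity was 46483 to 68024 units in apoE-/- aorta, against 22158 to 23768 units in wild-type aorta, and the lowest marker mean in either genotype was 122.8 units. The lysosomal glycoprotein Cd68 rose by 2.87 ± 0.25 in log2, the signalling adaptor Tyrobp by 2.38 ± 0.23 and the complement chain C1qb by 2.04 ± 0.18 (SE, adjusted p = 8.55e-04, 0.00144 and 9.39e-04). The mean deviation of the 18 markers was 1.48, 1.06 and 1.70 on apoE-/- replicates 1, 2 and 3, the same order as for the exporters and hydrolases. The part of macrophage number in the rises of Abca1, Abcg1, Mylip, Lipa and Nceh1 was not tested.

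**Figure D3:**
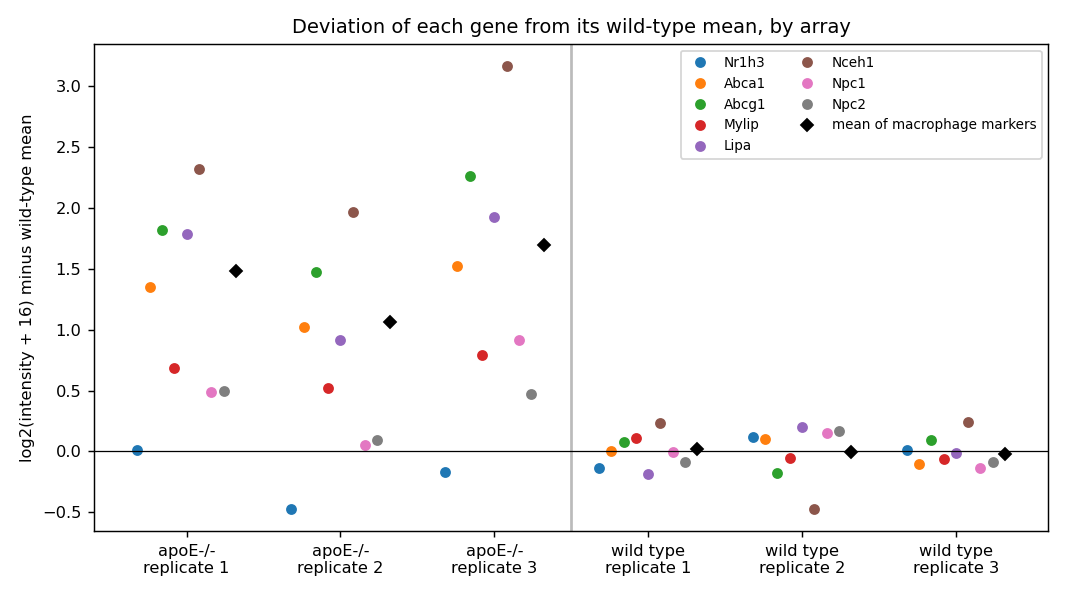
Deviation of log2(intensity + 16) from the wild-type mean for each of the 8 genes (coloured points) and for the mean of the 18 macrophage markers (black diamonds), by array, with apoE-/- arrays on the left. On the left, Nceh1 reaches 3.16 on replicate 3, replicate 2 has the lowest value of every gene, and Nr1h3 stays at or below 0.01.

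Of 10 endothelial markers 1 rose, the sialomucin Emcn (0.76 ± 0.16 in log2, SE, adjusted p = 0.0386), and of 9 fibroblast markers 1 rose, the proteoglycan Lum (1.02 ± 0.14, adjusted p = 0.00582). Over all genes tested, 3.15% rose. At an unadjusted p under 0.05 (limma), 3 endothelial and 2 fibroblast markers were higher and 0 of either list lower. Of all genes, 9.56% were higher and 8.81% lower at that level. The list medians were 0.22 and 0.18, with 10 of 10 and 8 of 9 log2 changes above 0. Of all 13031 genes, 5356 had a log2 change above 0, and the median of all genes was -0.05. None of 7 adipocyte markers and none of 4 lymphocyte markers passed the limma test (1 lower and 0 of them at an unadjusted p under 0.05). The adipocyte median was -0.45, with 0 of 7 log2 changes above 0. The lymphocyte median was 0.09, with 3 of 4 above 0. The mean deviation of the adipocyte list was -0.04, -0.58 and -0.48 on apoE-/- replicates 1, 2 and 3. On wild-type replicates 1, 2 and 3 that mean was -0.38, 0.60 and -0.23. Of 8 skeletal muscle markers 2 fell, the calcium store protein Casq1 and the creatine kinase Ckm, where 0.483% of all genes tested fell. In the limma fit 4 of the 8 markers were lower and 0 higher at an unadjusted p under 0.05. Their list median was -1.37 in log2, larger in size than the median of the 8 sterol genes. The 8 muscle markers summed to 1800 to 2152 units in apoE-/- aorta and 3170 to 22487 units in wild-type aorta, the highest being wild-type replicate 3. The mean deviation of the list was -1.60, -1.44 and -1.62 on apoE-/- replicates 1, 2 and 3. On the wild-type replicates it was -1.01, -1.12 and 2.13, so the size of the list median rests largely on wild-type replicate 3. Emcn lost its call without any one of apoE-/- replicates 1 and 3 and wild-type replicates 1 and 3, and Ckm without any one array other than apoE-/- replicate 2.

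The genes whose pattern over the 6 arrays was most like each riser were found by likeness alone, and any gene that separates the genotypes scores high on 6 arrays. By Pearson correlation of log2 values among all genes tested, Abca1 was most like the complement genes C3ar1 (r = 0.998) and C1qc (r = 0.998), and Abcg1 most like the interleukin 7 receptor Il7r (r = 0.999) and the proton pump subunit Atp6v0d2 (r = 0.998). Nceh1 was most like the ATP-gated channel P2rx7 (r = 0.999) and the inflammasome sensor Naip5 (r = 0.999). Lipa was most like the lectin Cd302 (r = 0.998) and AA467197 (r = 0.997), and Mylip most like the actin-capping protein Capg (r = 0.999) and the small GTPase Rab7b (r = 0.998).

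Around these genes lie the partners of the LXRs and their other targets. Of 11 measured partners and coregulators of the LXRs, among them Rxra and Rxrb, none passed the limma test (0 higher and 1 lower at an unadjusted p under 0.05), and their median log2 change was -0.14. The smallest p was that of the coactivator Ncoa3, which read 1017.0, 1419.4 and 1227.2 units in apoE-/- aorta, against 1474.7, 1566.5 and 1465.1 units in wild-type aorta (adjusted p = 0.246). Its ranges were apart, with apoE-/- lower. With no filter on dim probe sets 1 gene of the list rose, Rxrg, a partner of the LXRs (log2 change 1.39, adjusted p = 0.0327).

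Of 15 other genes listed as LXR targets 2 rose and 1 fell, with a median log2 change of -0.03. Of all genes tested, 3.15% rose and 0.483% fell. In the limma fit 3 of the 15 were higher and 2 lower at an unadjusted p under 0.05. Of all genes, 9.56% were higher and 8.81% lower at that level. Cd5l, a secreted macrophage protein, gave 10199.5, 6544.9 and 8944.9 units in apoE-/- aorta, against 175.6, 201.4 and 226.7 units in wild-type aorta, and rose by 5.29 ± 0.17 in log2 (SE, adjusted p = 4.14e-06). Pltp, the phospholipid transfer protein of plasma, was read by a probe set with the same shared-probe suffix as that of Lipa and gave 9745.1, 8367.3 and 10275.7 units in apoE-/- aorta, against 4967.3, 7098.0 and 5139.7 units in wild-type aorta, a log2 change of 0.73 ± 0.15 (adjusted p = 0.0320). Both had separate ranges, and the Pltp call was lost without any one of apoE-/- replicates 1 and 3 and wild-type replicates 1 and 3. The gene that fell was Apoe, an LXR target and the disrupted gene. Srebf1, the transcription factor by which LXRs drive fatty acid synthesis, was chosen for mention after its values were seen and had a log2 change of -0.07 ± 0.18 (adjusted p = 0.869). Mlxipl and Apoc1, chosen in the same way, were not called with all arrays (limma adjusted p = 0.111 and 0.343). Mlxipl fell without wild-type replicate 1 (log2 change -1.14, adjusted p = 0.0486) and Apoc1 without apoE-/- replicate 3 (-2.21, adjusted p = 0.0448).

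Of 6 measured enzymes that make or remove LXR ligands 1 rose, Ch25h, which makes 25-hydroxycholesterol. It gave 685.0, 358.4 and 693.7 units in apoE-/- aorta, against 130, 98.4 and 146 units in wild-type aorta, so that every apoE-/- array was above every wild-type one. Ch25h rose by 2.04 ± 0.27 in log2 (SE, limma adjusted p = 0.00534). It was called in all 15 alternatives in which it was tested. In the limma fit 1 of the 6 was higher and 1 lower at an unadjusted p under 0.05, against 9.56% and 8.81% of all genes. Of all genes tested, 3.15% rose. The list median was 0.04.

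Of 9 lipoprotein receptors and partners of Mylip 1 fell and 0 rose (2 lower and 1 higher at an unadjusted p under 0.05, limma). Of all genes tested, 0.483% fell and 3.15% rose (8.81% lower and 9.56% higher at that unadjusted level). Usp2, a deubiquitinase that stabilises Mylip, read 152.3, 172.5 and 162.5 units in apoE-/- aorta, against 302.0, 302.1 and 248.9 units in wild-type aorta, a log2 change of -0.75 ± 0.16 (SE, adjusted p = 0.0431). The ranges were apart, but the call was lost when any one of the 6 arrays was left out. With the median of each gene's probe sets the only call of this list was a rise, that of the endocytic receptor Lrp1 (log2 change 0.54, adjusted p = 0.0199), and Usp2 was not called (-0.47, adjusted p = 0.184). Rxrg and Lrp1 were chosen for mention after their values were seen.

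Genes of ester synthesis, hydrolysis and droplet storage other than the 10 held no called member among 13 measured (0 higher and 1 lower at an unadjusted p under 0.05, limma). Soat2 of this list was not tested, and Soat1 had no named probe set. The list therefore does not show whether the enzymes that esterify cholesterol inside cells changed. The smallest p was that of the bile salt-activated lipase Cel, at 121.4, 141.0 and 87.0 units in apoE-/- aorta, against 176.8, 260.4 and 241.8 units in wild-type aorta (log2 change -0.88 ± 0.23, SE, adjusted p = 0.0880). Its ranges were apart, with apoE-/- lower. The list median was -0.30. The mean deviation of the list was -0.06, -0.33 and -0.06 on apoE-/- replicates 1, 2 and 3. On the wild-type replicates it was -0.29, 0.41 and -0.12, so only wild-type replicate 2 stood above 0. That array also had the highest mean deviation of the adipocyte markers (0.60), and its part in the list median was not tested.

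Of 20 genes of sterol transport from late endosomes 1 rose, Psap, the precursor of the saposins. It read 14770.6, 11613.8 and 12587.5 units in apoE-/- aorta, against 8386.9, 8985.1 and 8590.1 units in wild-type aorta, with separate ranges and a log2 change of 0.58 ± 0.10 (SE, adjusted p = 0.0218). The call was lost without apoE-/- replicate 3, wild-type replicate 1 or wild-type replicate 3. At an unadjusted p under 0.05 (limma), 4 of the 20 were higher and 5 lower, where 9.56% of all genes were higher and 8.81% lower. The list median was 0.03. Of 13 efflux acceptors and other exporters, a list that shares Apoe and Pltp with the LXR targets, 1 rose and 1 fell, and these were Pltp and Apoe. Of all genes tested, 3.15% rose and 0.483% fell. In the limma fit 1 of the 13 was higher and 3 lower at an unadjusted p under 0.05. The array of apoE-/- replicate 3, the highest apoE-/- array for most of the sterol genes, stood apart for apolipoproteins of this list, which were picked for that reason. Apoa1, the acceptor for Abca1, read 29.0, 34.3 and 2393.6 units in apoE-/- aorta, against 178.1, 78.8 and 216.8 units in wild-type aorta. Apoa2, also carried on HDL, read 202.8, 183.5 and 3554.8 units in apoE-/- aorta, against 297.4, 190.7 and 352.7 units in wild-type aorta. Neither was called, and the part of whatever set replicate 3 apart in the sterol genes' values was not tested. Without that array the count of sterol genes called stayed at 5 of 8.

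**Figure D4:**
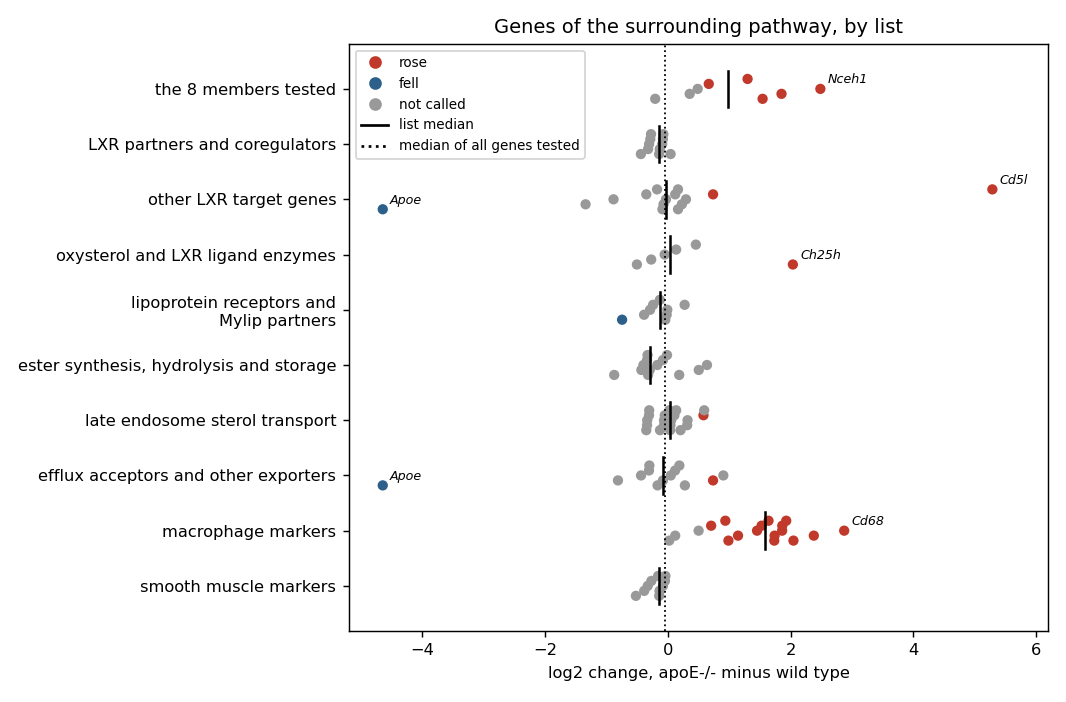
Log2 change, apoE-/- minus wild type, of every measured gene of each list (points, spread vertically only to be seen), with list medians as black bars and the median of all genes tested as a dotted line. Red points rose, blue points fell and grey points were not called. The macrophage markers and the 8 genes chosen by name have medians of 1.58 and 0.98, and the medians of the other pathway lists lie between -0.30 and 0.04.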

How the data were processed

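The authors deposited linear intensities of 45101 probe sets on 6 single-colour arrays. How these intensities were made is not given in the sources used here. Their mean after trimming 2% at each end was 500.002 on each array, so the authors had scaled them. Probe sets were named from the platform annotation, with 34958 carrying 1 symbol and 34754 of those updated by gene identifier through the RefSeq table of GRCm38.p6. The members and lists were chosen with earlier results of these data known.

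Intensities were transformed to log2(intensity + 16), which understates changes of dim probe sets. The 64 control probe sets and the lower 40% of the others by mean log2 were left out (18015), and each of 13031 genes was represented by its kept probe set of highest mean. The genotype difference was fitted in limma 3.58.1 under R 4.3.3, using lmFit and an eBayes step that follows intensity, first by gene and then over 27022 probe sets, with Benjamini-Hochberg adjustment over all rows and calls under 0.05. The fit was tested on simulated data. With 3 arrays per genotype the number of arrays limits the precision.

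Named genes were Apoe, all members, up to 4 called genes per pathway list and 3 per marker list by size of change (or the smallest p where a pathway list had no call), and for each called member the 2 genes most correlated with it.

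Alternatives were log offsets of 1 and 64, quantile normalization, median centring, a 60% filter or none, a median over the probe sets of each gene, eBayes with no trend, array weights, the replicate number as block, and omission of each array in turn.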

Additional observations from a re-analysis of the deposited data

How the results depend on the processing

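Across 16 alternatives no change of a measured member reversed its direction. Abca1, Abcg1 and Nceh1 were called in all 16, Lipa and Mylip in 15, and Nr1h3, Npc1 and Npc2 in none. The number of members called lay between 3 (without apoE-/- replicate 1) and 5 when single arrays were left out, and was 5 in the other alternatives, among them the replicate block. Same-numbered arrays did not deviate together (r = -0.10, -0.18 and -0.05 for numbers 1, 2 and 3), so the numbers were not taken as pairs.

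Of all genes, 473 were called, against 309 without the intensity trend, 301 with the replicate block, and 155 to 701 when single arrays were left out. Of probe sets, 736 were called, against 449 without the trend and 295 to 1086 when single arrays were left out. The causes were not tested. With the replicate block Pltp, Psap, Usp2, Emcn and Ckm lost their calls (adjusted p = 0.101, 0.0871, 0.127, 0.109 and 0.0834). Calls were also lost without the trend (Pltp 0.0769, Psap 0.0609, Emcn 0.0684), without a filter (Pltp 0.0592, Usp2 0.0830, Emcn 0.0621), with quantile normalization (Usp2 0.0528, Emcn 0.0517), with median centring (Usp2 0.0605), and with the median of probe sets (Usp2 0.184, Ckm 0.136), all as adjusted p. Low wild-type signal limits the precision of the Nceh1 fold changes.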
